A study of Mus musculus with 18 samples.

Results

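Calorie restriction on a high-fat diet was described across all genes by setting 3 livers of restricted mice (HF+CR) against 3 livers of mice that ate the same diet without limit (HF), 6 of the 18 arrays of a series with 6 groups. The 6 arrays were taken by their titles, and no measured value entered the choice. All mice were male C57BL/6J, an inbred laboratory strain, housed 1 to a cage and sampled at 62 weeks of age. HF+CR mice were given 30% less food than the HF group had eaten in the week before, of a diet with 60% fat. HF mice ate that diet freely. A pair of low-fat groups (10% fat), LF+CR under the same 30% restriction and LF fed freely, is used where stated. The diets began at 5 weeks of age in groups of 30 mice, 3 of which were arrayed per group. Food was thus set relative to the freely fed group of the same diet, and the sources used here give neither body weight nor the hours since the last meal at sampling.

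The liver makes fatty acids and cholesterol, packs surplus fat into lipid droplets and exports it in lipoproteins. On a lasting high-fat diet droplets accumulate and the genes that coat them are switched on. Cholesterol synthesis genes are driven by SREBP2, a transcription factor that is released when sterol in the endoplasmic reticulum is low. Another large part of the mouse liver's programme differs between males and females and is kept in the male state by pulses of growth hormone. Calorie restriction is a reduced energy intake without malnutrition, best known for slowing ageing in rodents.

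Values are intensities of Affymetrix probe sets (groups of short probes designed against a transcript, some shared by related genes), and log2 fold changes are HF+CR over HF of the intensity plus 16, with the standard error (SE) of the linear model. A gene passed at a Benjamini-Hochberg adjusted p under 0.05 in limma over the 14198 genes tested, and groups that do not overlap have all 3 arrays of 1 group above all 3 of the other. Intensities under 88.22 to 97.574, the 40th percentile of an array, were taken as background. HF 1 stood apart from HF 2 and HF 3 on the first principal component (21.2, against 4.76 and 8.56) and was most similar to an array of another group. HF+CR 1 had the highest median intensity of all arrays (118.35, against 104.87 to 115.13). The 3′ to 5′ ratio of the Gapdh control probes, a sign of RNA integrity, was 1.08 to 1.18 on HF+CR arrays and 1.02 to 1.06 on HF arrays. The part of these differences in the results was not tested, beyond the counts without single arrays given below.

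In all 864 genes changed with restriction, 6.09% of those tested, of which 502 rose (3.54%) and 362 fell (2.55%). Of the 864, 857 had groups that did not overlap, as had 31.3% of all genes tested (17.9% higher and 13.4% lower). The median log2 fold change of all genes was 0.04, with a median SE of 0.0853. Most changes were small. Only 33 rises and 41 falls exceeded 1 on the log2 scale, and 4 rises and 5 falls exceeded 2. With each array centred on its median, which shifted every fold change by -0.06, 292 genes rose and 514 fell. On quantile-normalized arrays 428 rose and 363 fell. The split of rises and falls therefore depends on the scaling. Leaving out HF 1 gave 285 calls and leaving out HF 3 gave 413. Without HF+CR 1 there were 366, and without HF+CR 2 there were 344.

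Of the 51 gene lists examined, cholesterol synthesis held the most genes that passed. The shares to set beside the counts of each list are 3.54% of all genes for rises and 2.55% for falls. Of 17 members tested 15 rose and none fell, and the groups did not overlap for any of the 17, which were all higher in HF+CR (background 17.9%). The median log2 fold change of the 17 was 0.92. Sqle encodes squalene epoxidase, a rate-limiting enzyme of the sterol branch. It read 862, 1253 and 1123 on the HF+CR arrays and 411, 130.4 and 356 on the HF arrays (log2 fold change 1.92, SE 0.305, adjusted p = 0.00243). Idi1, which isomerises the isoprene unit that the pathway polymerises, read 1823, 2087 and 2222 in HF+CR livers and 837, 314 and 660.1 in HF livers (log2 fold change 1.84, SE 0.266, adjusted p = 0.0013). HF 2 was the lowest HF array for both genes. HF 1 and HF 3 stood nearer to, but still below, the restricted livers.

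Further along the pathway Fdps, the farnesyl diphosphate synthase gene, read 2522, 2866 and 2681 in HF+CR livers and 1431, 471 and 1106 in HF livers (log2 fold change 1.55, SE 0.272, adjusted p = 0.00447), although its other bright probe set moved under 25% as far. Cyp51, the lanosterol demethylase gene, rose by 1.53 (SE 0.23), Nsdhl, a sterol dehydrogenase gene, by 1.67 (SE 0.233) and Msmo1, the methylsterol oxidase gene, by 1.31 (SE 0.242) on the log2 scale. These genes passed with each of the 6 arrays left out in turn. Over all the alternative settings described below, the log2 fold change of Msmo1 ran from 0.67 to 1.49. The other 9 that rose, Dhcr7, Pmvk, Lss, Tm7sf2, Hsd17b7, Fdft1, Mvk, Sc5d and Ebp, did so by 0.38 to 1.11. The pair that did not pass were Hmgcs1, the HMG-CoA synthase gene (log2 0.68, adjusted p = 0.0926), and Mvd, the mevalonate decarboxylase gene (log2 0.34, adjusted p = 0.0695). The summed intensity of the 17 genes was 27203, 31579 and 30868 on the HF+CR arrays and 18829, 12768 and 17343 on the HF arrays. Without 1 array, 11 to 13 members rose, with 11 when HF+CR 2 was left out. Srebf2, which encodes SREBP2, read 329, 294 and 322 in HF+CR livers and 285, 265 and 293 in HF livers and did not pass (log2 0.16, adjusted p = 0.123).

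Because the 15 genes rose together, the promoters of 4 of those with the largest rises are shown as the 250 bases before the gene start (RefSeq, GRCm38.p6), at chr13:8885356-8885605 on the plus strand for Idi1, chrX:72918271-72918520 on the plus strand for Nsdhl, chr5:4104698-4104947 on the minus strand for Cyp51 and chr8:64733579-64733828 on the minus strand for Msmo1. Capitals mark the letters CCAAT on either strand (ATTGG on the other strand), the binding motif of NF-Y, a factor that acts beside SREBP at sterol genes.
Idi1: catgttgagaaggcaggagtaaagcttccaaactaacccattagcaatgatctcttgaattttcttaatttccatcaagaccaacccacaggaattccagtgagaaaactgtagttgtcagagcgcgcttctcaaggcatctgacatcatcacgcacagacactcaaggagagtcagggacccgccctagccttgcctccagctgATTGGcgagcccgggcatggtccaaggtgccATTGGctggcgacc
Nsdhl: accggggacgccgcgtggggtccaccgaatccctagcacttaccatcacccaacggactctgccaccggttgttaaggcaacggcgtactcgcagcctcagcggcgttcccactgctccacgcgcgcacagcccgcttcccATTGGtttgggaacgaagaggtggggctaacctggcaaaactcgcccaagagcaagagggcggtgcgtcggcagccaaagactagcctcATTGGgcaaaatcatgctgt
Cyp51: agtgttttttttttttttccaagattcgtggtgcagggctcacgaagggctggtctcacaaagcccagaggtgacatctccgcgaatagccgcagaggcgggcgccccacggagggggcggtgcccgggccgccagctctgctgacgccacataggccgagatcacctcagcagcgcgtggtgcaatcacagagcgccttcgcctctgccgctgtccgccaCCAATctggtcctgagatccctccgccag
Msmo1: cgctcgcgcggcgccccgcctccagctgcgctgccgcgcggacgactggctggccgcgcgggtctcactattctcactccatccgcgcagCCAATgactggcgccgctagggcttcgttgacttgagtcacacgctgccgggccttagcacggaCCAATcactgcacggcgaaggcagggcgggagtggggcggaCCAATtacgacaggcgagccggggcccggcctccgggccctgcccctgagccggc
The motif stood in 1 place in the Cyp51 promoter, 29 bases before the start, at 14 and 45 bases in Idi1, at 20 and 109 bases in Nsdhl and at 55, 96 and 160 bases in Msmo1. Of the 15 genes that rose 12 had an entry in the promoter table, and all 12 held the motif in this window, as did 33.8% of the 32851 promoters in the table. The motif is 1 of 4 searched on both strands. TCACNCCAC, a form of the sterol response element, stood in 1.05% of all promoters and in none of the 12. CACNTG was found in 5 of the 12 (39.5% of all) and TTCNNNGAA in 1 (7.02% of all). These are matches of letters and not measured binding.

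The male-biased genes of the liver held the largest rises of all. Hsd3b5, a keto-steroid reductase gene expressed in male mouse liver, read 3053, 2582 and 4177 on the HF+CR arrays and 73.1, 75.3 and 70.2 on the HF arrays, which is background (log2 fold change 5.18, SE 0.546, adjusted p = 0.000141). HF+CR exceeded HF at least 35.2-fold, with the HF level set at the lowest measurable signal. Slco1a1, a bile acid and steroid uptake transporter gene, read 2413, 2512 and 2425 in HF+CR livers and 109.8, 118 and 103 in HF livers (log2 fold change 4.29, SE 0.375, adjusted p = 7.72e-05). For neither gene did an HF+CR liver come near an HF liver.

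Of 19 male-biased genes tested 8 rose and none fell, with a median log2 fold change of 0.77. For 14 the groups did not overlap, all higher in HF+CR (background 17.9%). C8b and C6, genes of the terminal complement pathway, rose by 1.51 and 1.27. Cyp7b1, the oxysterol hydroxylase gene, read 5297, 4677 and 5599 in HF+CR livers and 1568, 2199 and 2123 in HF livers (log2 fold change 1.41, SE 0.181, adjusted p = 0.000553). Nudt7, a peroxisomal coenzyme A hydrolase gene, rose by 0.84, but not without HF 1 (adjusted p = 0.0614). Elovl3, a fatty acid elongase gene, read 2176, 2405 and 4086 in HF+CR livers and 825, 746 and 1620 in HF livers and missed the threshold (adjusted p = 0.0754), as did the major urinary protein gene Mup10 (log2 1.14, adjusted p = 0.0546). Probe sets of the Mup, Cyp2b and Slc22a families can share sequence between members. Without 1 array 7 or 8 of the 19 rose.

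Female-biased genes lay the other way. Of 16 tested 4 fell and none rose (median log2 fold change -0.44). Cyp2b13, a cytochrome P450 gene of female liver, read 87.9, 83.4 and 80.8 in HF+CR livers, at background, and 249.9, 539 and 299.5 in HF livers (log2 fold change -1.85, SE 0.32, adjusted p = 0.00401), so that HF exceeded HF+CR at least 3.61-fold. Slc22a27, an organic anion transporter gene, read 95.9, 121 and 98 in HF+CR livers and 420.3, 736 and 581 in HF livers (log2 fold change -2.27, SE 0.271, adjusted p = 0.000307). Cyp2b9 fell by 1.31, though not without HF+CR 2 (adjusted p = 0.0558), and the fourth was Acot3, a peroxisomal acyl-CoA thioesterase gene that also belongs to the oxidation group below. Among genes of the growth hormone and IGF1 axis, 2 of 22 rose and none fell (1 or 2 without 1 array), while 3.54% of all genes rose. Egfr, the epidermal growth factor receptor gene, read 3117, 2730 and 2182 in HF+CR livers and 372, 456 and 692 in HF livers (log2 fold change 2.40, SE 0.339, adjusted p = 0.0011). It passed under all the alternative settings described below, but its log2 fold change ran from 1.08 to 2.64 over them. Igf1, the growth factor gene, read 4645, 4214 and 4679 in HF+CR livers and 3451, 3887 and 3762 in HF livers without overlap and did not pass (adjusted p = 0.068), nor did the growth hormone receptor gene Ghr (log2 0.22, adjusted p = 0.149).

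**Figure D1:**
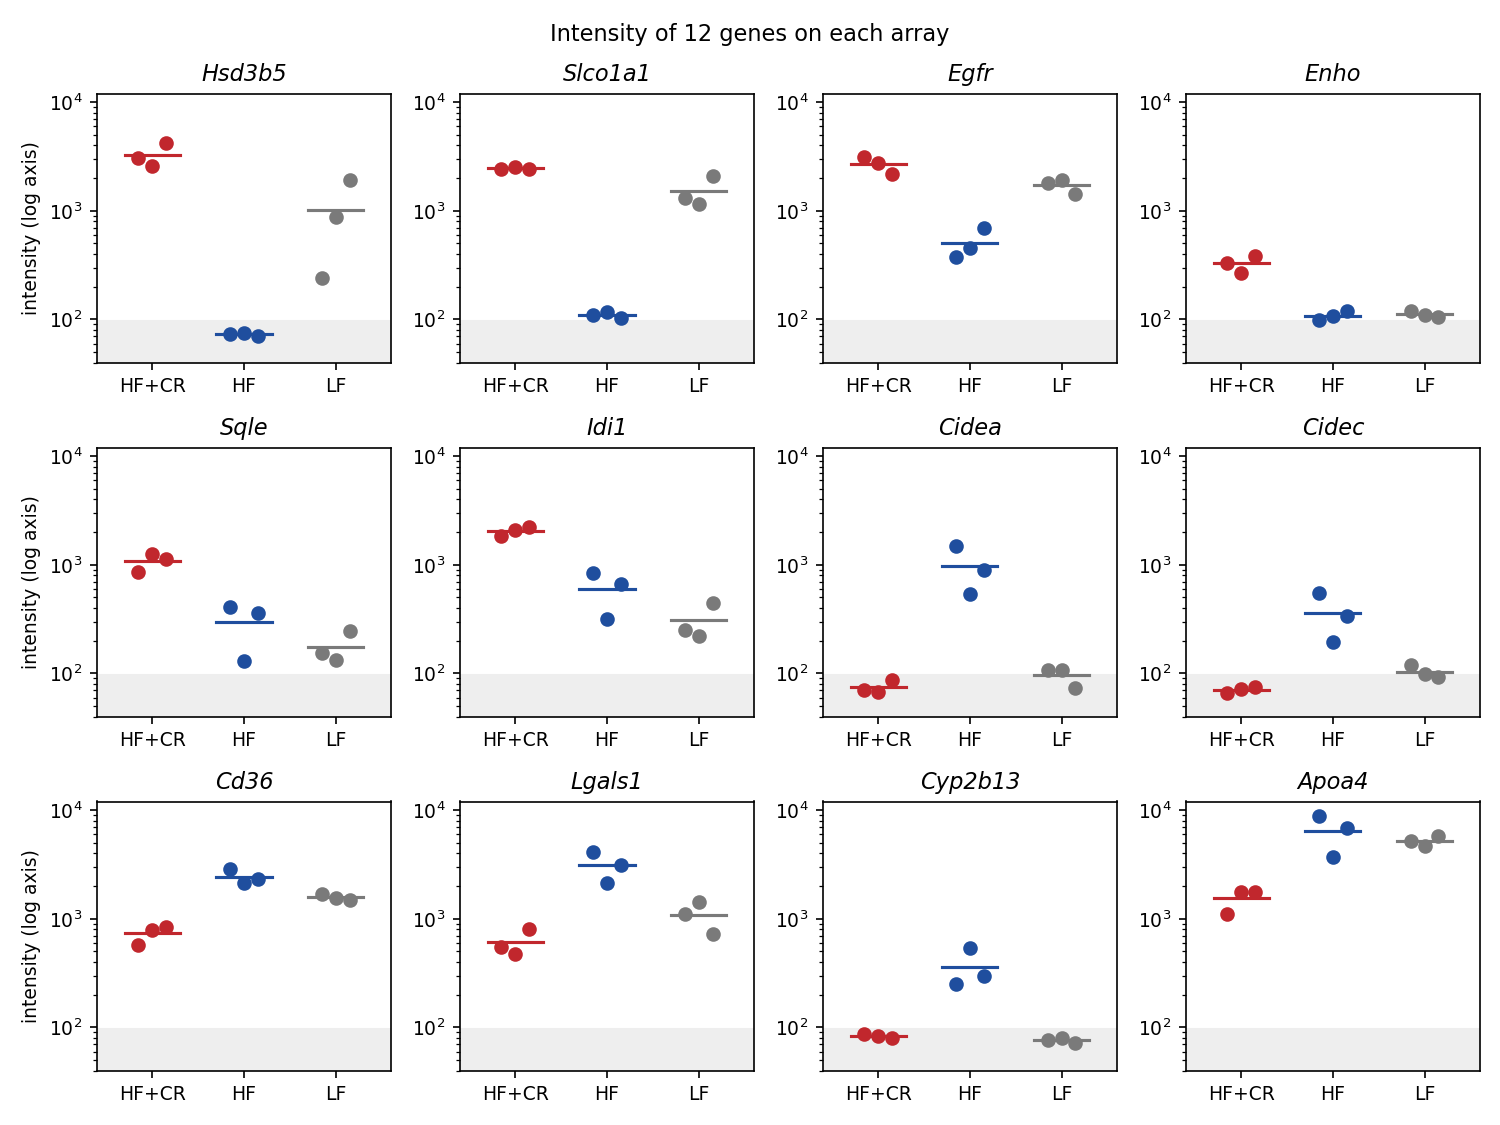
Intensity (log axis) of 12 genes on each of 3 HF+CR, 3 HF and 3 LF arrays, with points for arrays, lines for group means and grey for intensities up to 97.574, taken as background. Hsd3b5 stands between 70.2 and 75.3 on the HF arrays and between 2582 and 4177 on the HF+CR arrays, while Cidea and Cidec lie in the grey band on every HF+CR array.

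The largest fall of all was that of a lipid droplet gene. Cidea, whose product fuses lipid droplets and is hardly made in lean liver, read 70.3, 67.5 and 87.5 in HF+CR livers, at background, and 1479, 536 and 904 in HF livers (log2 fold change -3.33, SE 0.405, adjusted p = 0.000339), so that HF exceeded HF+CR at least 9.44-fold. Its relative Cidec read 66.6, 71.5 and 74.3 in HF+CR livers, also at background, and 546, 193 and 339 in HF livers (log2 fold change -2.00, SE 0.358, adjusted p = 0.00492), at least 3.47-fold higher in HF. Cd36, the fatty acid uptake receptor gene, read 575, 788 and 846 on the HF+CR arrays and 2842, 2132 and 2320 on the HF arrays (log2 fold change -1.71, SE 0.18, adjusted p = 0.000141). HF 1 was the highest and HF 2 the lowest array for the 3 genes, and no HF array reached the restricted range.

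Among the 21 tested genes of lipid droplets and fatty acid uptake 10 fell and none rose, and the median log2 fold change was -0.62. The droplet coat genes Plin4 and Plin5 fell by 1.38 and 0.90, and Pparg, the nuclear receptor gene of fat storage, by 1.11, each also with any 1 array left out. Hsd17b13, a droplet-bound dehydrogenase gene, fell by 0.62, but its other bright probe set moved under 25% as far. Fabp4, the adipocyte fatty acid binding protein gene, read 292, 235 and 351 in HF+CR livers and 658, 362 and 437 in HF livers without overlap and did not pass (adjusted p = 0.171). The summed intensity of the 21 genes was 20089, 21549 and 23409 on HF+CR arrays and 36058, 28178 and 33728 on HF arrays. Without 1 array 8 to 10 fell, with 8 when HF+CR 1 was left out. In triglyceride synthesis 2 of 12 genes fell and none rose. These were Mogat1, a monoacylglycerol acyltransferase gene (109.7, 123 and 125 in HF+CR livers, against 336, 192 and 275 in HF livers, adjusted p = 0.00205), and Gpd1, which makes glycerol phosphate (log2 -0.42, adjusted p = 0.00777).

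Peroxisomal and microsomal fatty acid oxidation genes, many of them known PPARα targets, also fell in part: 8 of 19 fell and none rose, with a median of -0.32. Pex11a, a factor of peroxisome proliferation, read 904, 909 and 904 in HF+CR livers and 2627, 1847 and 2135 in HF livers (log2 fold change -1.25, SE 0.173, adjusted p = 0.000936). The thioesterase genes Acot3 and Acot4 fell by 1.79 and 0.88. Acnat2, an acyltransferase gene outside this list, fell by 1.41. The count of the list was 4 without HF 1 or HF 3 and 5 without HF+CR 1 or HF+CR 2. Ppara, the receptor gene itself, read 2682, 1874 and 1669 in HF+CR livers and 2568, 2445 and 2599 in HF livers and did not pass (adjusted p = 0.493). In mitochondrial oxidation and ketogenesis 2 of 16 genes fell, Hadh, the hydroxyacyl-CoA dehydrogenase gene (log2 -0.29, adjusted p = 0.0055), and Slc25a20, the carnitine carrier gene (log2 -0.38), which passed only with HF 2 left out or with all arrays (adjusted p = 0.141 at most). Cpt1a, which controls entry of fatty acids into mitochondria, did not pass (log2 -0.24, adjusted p = 0.168).

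Fatty acid synthesis changed less than sterol synthesis. Of 20 genes tested 4 rose and none fell (median 0.17), and 1 to 3 rose without 1 array, with 1 when HF 2, HF 3 or HF+CR 2 was left out. Acly, which makes cytosolic acetyl-CoA from citrate, read 1679, 2026 and 1687 in HF+CR livers and 1035, 865 and 913 in HF livers (log2 fold change 0.93, SE 0.143, adjusted p = 0.00205) and kept its call in all 6 such fits. Acss2, the acetyl-CoA synthetase gene, rose by 0.96 (adjusted p = 0.0215, and 0.0966 without HF+CR 2). Fasn, the fatty acid synthase gene, read 1664, 1805 and 1823 in HF+CR livers and 1427, 966 and 1146 in HF livers, without overlap but short of the threshold (log2 0.59, adjusted p = 0.0749). Srebf1, the transcription factor gene of fatty acid synthesis, likewise did not pass (log2 0.54, adjusted p = 0.109), nor did the desaturase gene Scd1 (log2 -0.28, adjusted p = 0.123).

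Apoa4, an apolipoprotein gene known to rise in fatty liver, read 1115, 1769 and 1768 in HF+CR livers and 8848, 3741 and 6819 in HF livers (log2 fold change -1.99, SE 0.339, adjusted p = 0.00381). Of the 17 genes of its group 2 rose and 2 fell, with 1 fall when any array but HF 2 was left out. Apom, which carries sphingosine phosphate on HDL, read 2840, 2970 and 2938 in HF+CR livers and 1910, 1839 and 1928 in HF livers (log2 fold change 0.62, SE 0.12, adjusted p = 0.00773), and Sort1, a sorting receptor gene, rose by 0.42. Among genes of hepatokines, proteins that the liver secretes as signals, and of hormone-binding proteins 2 of 22 rose and none fell (3.54% of all genes rose). Among the 2 was Enho. It encodes adropin, a peptide linked to glucose and lipid balance, and read 331, 270.1 and 381 in HF+CR livers and 97.8, 107 and 120.1 in HF livers (log2 fold change 1.46, SE 0.155, adjusted p = 0.000144). For Enho the HF arrays stood at or just above background, and its log2 fold change ran from 0.77 to 1.58 over all the alternative settings. Fgf21, another hepatokine gene, read 119, 124 and 183 in HF+CR livers and 263, 181 and 279 in HF livers, with overlap (adjusted p = 0.344).

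**Figure D2:**
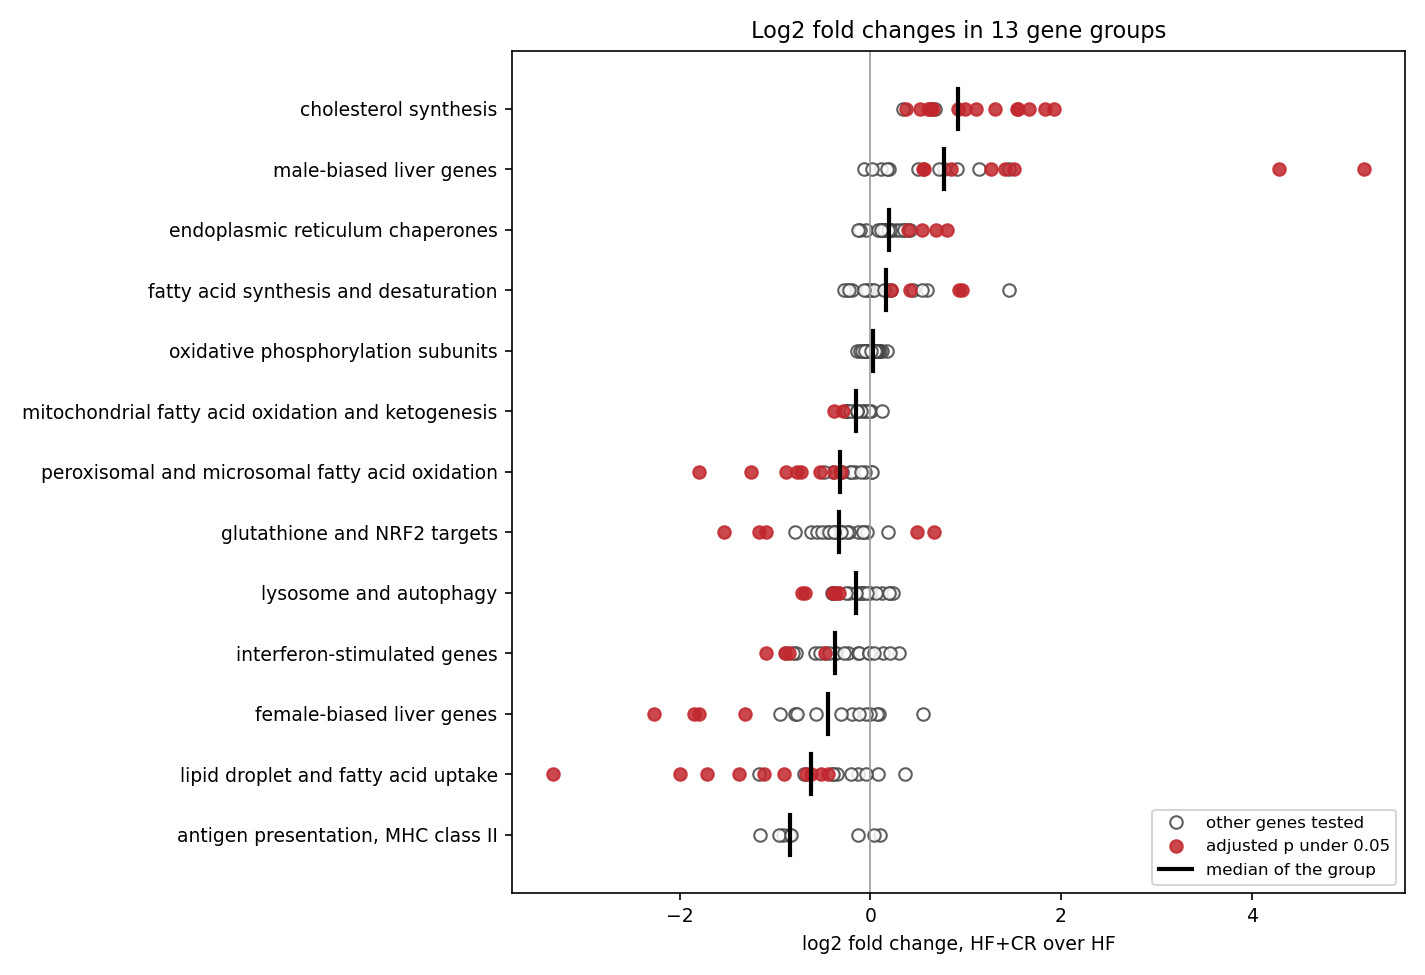
Log2 fold change of HF+CR over HF for the tested members of 13 gene groups, with filled points for genes at adjusted p under 0.05, open points for the other genes and a bar at the group's median. The medians run from 0.92 for cholesterol synthesis to -0.85 for antigen presentation, in which no gene passed.

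Detoxification genes moved in both directions. Of 25 glutathione and NRF2 target genes 3 fell and 2 rose (2 to 4 and 1 or 2 without 1 array), with a median of -0.33, and for 17 the HF+CR arrays lay wholly below the HF arrays (background 13.4%). Gsta2, a glutathione transferase gene, read 876, 777 and 740.0 in HF+CR livers and 2183, 2565 and 2270 in HF livers (log2 fold change -1.53, SE 0.302, adjusted p = 0.00853). Nqo1, a quinone reductase gene and a classic NRF2 target, fell by 1.17, but not without HF 1, HF 3 or HF+CR 1 (adjusted p = 0.108 at most). Mgst3 fell by 1.10 and Gstm7 rose by 0.67, and in both the other bright probe set moved under 25% as far. Of 22 xenobiotic P450 genes 4 fell and 1 rose. Cyp2c38 read 428, 626 and 417 in HF+CR livers and 1345, 1722 and 1595 in HF livers (log2 fold change -1.65, SE 0.18, adjusted p = 0.000169), and without 1 array 1 to 4 of the 22 fell, with 1 when HF 3 or HF+CR 1 was left out. Of 15 drug transporter genes 4 fell and 2 rose, among them Slc16a7, a pyruvate transporter gene (447, 558 and 499.7 in HF+CR livers, against 1087, 1027 and 1004 in HF livers, adjusted p = 0.000105), and Slc22a7, an organic anion transporter gene that rose by 1.47. Only 2 of the 15 fell without HF 1.

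Immune lists did not move alike. In the lists of T and natural killer cells, B and plasma cells and neutrophils no gene passed, with medians of 0.05, 0.02 and 0.12 and summed intensities that overlapped between HF+CR and HF. In antigen presentation by MHC class II none of 8 genes passed, yet for 6 the groups did not overlap, all lower in HF+CR (background 13.4%), and the median was -0.85. An unadjusted p under 0.05 was reached by 3 of the 8, and 1 passed with array weights. H2-Ab1, an MHC class II chain gene, read 460.0, 407 and 436 in HF+CR livers and 1291, 781 and 951 in HF livers (adjusted p = 0.169). In a fit of the 6 arrays alone, without the spread of the other groups, 5 of the 8 fell. Over all 14198 genes 394 fell in that fit, and 938 fell with array weights. The share of all genes with an unadjusted p under 0.05 was not counted, so counts at that level have no background to be set against, in this list or any other. The LF arrays for H2-Ab1 read 538, 856 and 288, a wider spread than in the restricted livers.

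Of 13 genes of recruited and lipid-associated macrophages none passed, 6 had an unadjusted p under 0.05, 5 fell with array weights and 6 fell in the fit of the 6 arrays. Of all 14198 genes 938 fell with array weights and 394 in the fit of the 6 arrays. Mmp12, a macrophage elastase gene, read 52.1, 55.6 and 54.3 in HF+CR livers, at background, and 365, 115 and 192 in HF livers (adjusted p = 0.0806). Lgals3, which encodes galectin-3, read 204, 197 and 175 in HF+CR livers and 761, 403 and 396 in HF livers (adjusted p = 0.087). The summed intensity of this list was 3332 to 3592 in HF+CR livers and 4481 to 6537 in HF livers, and that of 14 Kupffer cell markers, of which 1 fell with all arrays, 9760 to 11047 in HF+CR livers and 11636 to 16581 in HF livers. In bulk tissue fewer macrophages and less RNA per macrophage cannot be told apart. Hepatocyte markers summed to 106260 to 110210 in HF+CR livers and 98523 to 103250 in HF livers, so both were liver RNA rich in hepatocyte transcripts.

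**Figure D3:**
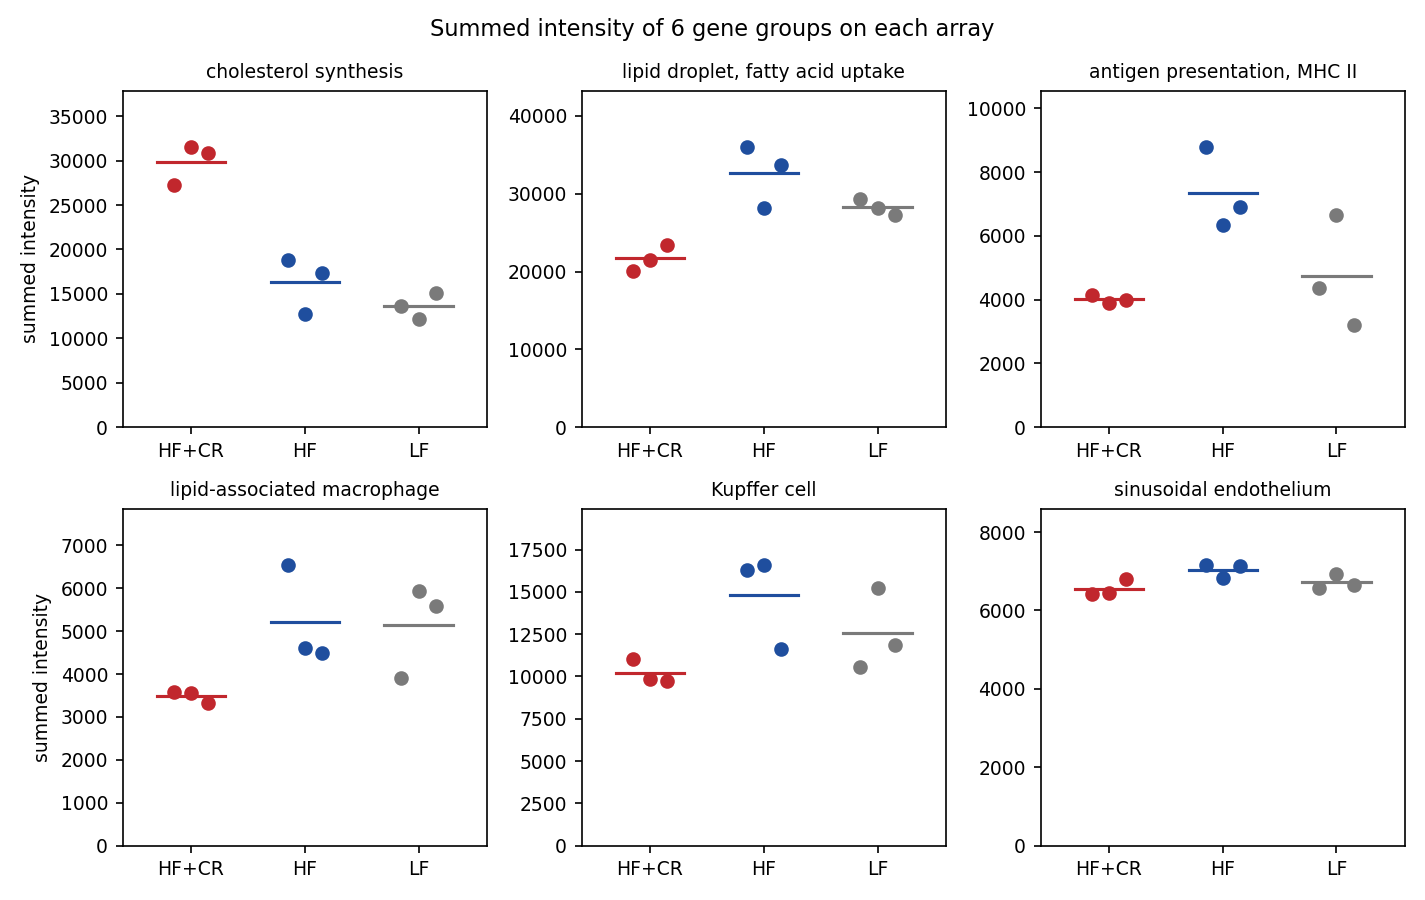
Summed intensity of 6 gene groups on each of 3 HF+CR, 3 HF and 3 LF arrays, with points for arrays and lines for group means. The HF+CR arrays lie above the HF arrays for cholesterol synthesis (27203 at the lowest, against 18829 at the highest) and below them in the other panels.

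Of 23 interferon-stimulated genes 4 fell and none rose, with a median of -0.37 and 14 wholly lower in HF+CR (background 13.4%). Ifit3, an antiviral effector gene, read 279, 268 and 277 in HF+CR livers and 402, 389 and 375 in HF livers (log2 fold change -0.48, SE 0.106, adjusted p = 0.0169). The count was 0 without HF 1, 0 without HF+CR 2 and at most 2 without any other array. None of 25 acute-phase and complement genes passed, 9 had an unadjusted p under 0.05, while 2 rose with array weights and 4 fell in the fit of the 6 arrays. Of all 14198 genes 1240 rose with array weights and 394 fell in the fit of the 6 arrays. Lcn2, which encodes lipocalin-2, read 93.8, 131 and 118 in HF+CR livers and 1086, 341 and 355 in HF livers and did not pass (log2 -2.03, adjusted p = 0.116). Saa1, the serum amyloid gene, read 856, 1603 and 1684 in HF+CR livers and 3866, 2489 and 2619 in HF livers (adjusted p = 0.328). For both genes every HF array lay above the HF+CR arrays, and LF arrays covered a wider range than HF+CR arrays, 130.1, 808 and 80.5 for Lcn2.

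Lysosomal genes fell in 5 of 23 cases, and in 3 without HF 1, HF 3, HF+CR 1 or HF+CR 2. Hexa, a glycolipid hydrolase gene, read 1170, 1084 and 1134 in HF+CR livers and 2062, 1689 and 1862 in HF livers (log2 fold change -0.72, SE 0.127, adjusted p = 0.00474), and the cathepsin genes Ctsz and Ctsb fell by 0.68 and 0.33. Endoplasmic reticulum chaperones rose in 4 of 26 cases (median 0.19), and in 2 without HF+CR 1 or any 1 HF array. Calr, the calreticulin gene, read 3959, 4283 and 4250 in HF+CR livers and 2763, 2626 and 3173 in HF livers (log2 fold change 0.55, SE 0.101, adjusted p = 0.00579). Of 22 urea cycle and amino acid catabolism genes 1 rose and 1 fell, as did 1 and 1 of 22 methionine cycle and one-carbon genes (6.09% of all genes were called). The falls were those of Glul, the glutamine synthetase gene of pericentral hepatocytes, by 0.33, and Mat1a, which makes S-adenosylmethionine, by 0.38. Of 15 pericentral genes tested 1 rose and 2 fell (3.54% and 2.55% of all genes), while 10 were higher and 5 lower, with a median log2 fold change of 0.03. Tat, the tyrosine aminotransferase gene, is in neither of the amino acid and methionine lists. It read 5095, 4267 and 3643 in HF+CR livers and 2622, 2109 and 2565 in HF livers (log2 fold change 0.82, SE 0.121, adjusted p = 0.00148).

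Several groups often discussed with calorie restriction held no gene that passed. None of 39 oxidative phosphorylation subunits, 32 cytosolic ribosomal protein genes, 18 heat shock genes, 18 circadian clock genes, 19 sirtuin and NAD genes or 21 cell cycle genes passed. In limma, an unadjusted p under 0.05 was reached by 0 of the oxidative phosphorylation, 3 of the ribosomal, 2 of the heat shock, 1 of the clock, 6 of the sirtuin and NAD and 2 of the cell cycle genes. With array weights, which calls 2178 genes in all, at most 3 members of any of these groups passed. Sirt1, the deacetylase gene, read 203, 221 and 204 in HF+CR livers and 182, 199.5 and 181 in HF livers (log2 0.15, SE 0.0862, adjusted p = 0.298). Nampt, which recycles nicotinamide into NAD, read 339.6, 368 and 272 in HF+CR livers and 519, 607 and 419 in HF livers without overlap (adjusted p = 0.0795). Of 40 genes listed for their part in liver metabolism and ageing 33 were tested, of which Pparg and Mogat1 passed.

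Some of the largest changes belonged to lists not described above or to none. Of 23 extracellular matrix genes 1 rose and 1 fell (over all genes 3.54% rose and 2.55% fell), and the rise was lost without HF 1, HF+CR 1 or HF+CR 2. The fall was that of Lgals1, which encodes galectin-1, a lectin of matrix and immune cells. It read 554, 475 and 807 in HF+CR livers and 4074, 2111 and 3157 in HF livers (log2 fold change -2.30, SE 0.315, adjusted p = 0.000892). Rcan2, a calcineurin inhibitor gene, read 96, 125 and 146 in HF+CR livers and 459, 499 and 446 in HF livers (log2 fold change -1.82, SE 0.176, adjusted p = 0.000105). Of 13 periportal genes 1 rose and 2 fell (1 or 2 without 1 array). The rise was that of Cdh1, the E-cadherin gene of epithelial junctions and periportal hepatocytes, by 1.62. Susd4, a complement regulator gene, rose by 1.64, and Clec2h, a C-type lectin gene, by 1.74. Lgals1, Rcan2, Cdh1, Susd4 and Clec2h passed with each array left out.

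Lyve1, a receptor gene of sinusoidal endothelium, read 155, 163 and 122 in HF+CR livers and 348, 309.9 and 337 in HF livers (log2 fold change -1.10, SE 0.224, adjusted p = 0.0099), while 12 of the 14 endothelial markers did not pass. Rad51b, a recombination gene, fell by 2.53, but its other bright probe set did not fall (log2 0.07). Iglv1, an immunoglobulin variable segment gene, was at least 3.24-fold higher in HF+CR, but its other bright probe set moved under 25% as far. Cela1, an elastase gene of the pancreas that liver can also express, read 1617, 1233 and 1827 in HF+CR livers and 412, 417 and 452 in HF livers (log2 fold change 1.81, SE 0.304, adjusted p = 0.0036). Of 11 pancreatic acinar markers only Cela1 passed, and Clps, the colipase gene, stood at 47.4 to 50.3 on HF+CR arrays and 47.7 to 51.1 on HF arrays, at background in both. The summed intensity of the 11 was 2126 to 2756 in HF+CR livers and 1206 to 1286 in HF livers, sums that include Cela1. Among bile duct markers Krt19 read 399, 86.8 and 87.9 in HF+CR livers and 82.8, 88.7 and 85.9 in HF livers, so that HF+CR 1 alone stood out.

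Set beside the low-fat livers, restricted high-fat livers differed in 227 genes (1.6% of those tested), 120 higher (0.845%) and 107 lower (0.754%). This comparison shares the HF+CR arrays with the one above, so its values are given side by side only. Of the 502 genes that rose against HF, 438 did not differ from LF, 64 were higher and none was lower. Of the 362 that fell, 305 did not differ from LF, 56 were lower and 1 was higher. A gene that did not pass is not shown to be equal to LF.

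Cholesterol synthesis genes lay above the low-fat level as well, with 14 of 17 higher than in LF. Msmo1 read 2063, 2596 and 2546 in HF+CR livers and 288, 294 and 561 in LF livers (log2 2.67, adjusted p = 7.24e-05). Hsd3b5, at 243, 884 and 1936 in LF livers, was not called against LF (adjusted p = 0.0762), nor was Slco1a1 (log2 0.73). Enho read 120.5, 110.4 and 104 in LF livers, so that HF+CR lay above both freely fed groups (log2 1.42, adjusted p = 0.00028). Cidea and Cidec, at 108, 107 and 72.7 and 119.5, 99 and 93.5 in LF livers, were not called against LF. Cd36 and Apoa4, by contrast, were lower in HF+CR than in LF (log2 -1.10 and -1.76), as was Acot3 (log2 -2.52). Lepr, the leptin receptor gene, read 63.9, 72.6 and 60.3 in HF+CR livers and 74, 80.9 and 77.6 in HF livers, both at background, against 280.2, 211 and 364 in LF livers (adjusted p = 0.0237 against LF), so that LF exceeded HF+CR at least 2.93-fold.

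The same 30% restriction on the low-fat diet used other arrays. LF+CR against LF called 791 genes (5.57%), 327 higher (2.3%) and 464 lower (3.27%). The colipase gene Clps, a pancreatic marker, stood at 418 on LF+CR 1 and 221 on LF 1, against 45.9 to 53.1 on the other LF+CR and LF arrays. Without these and 2 arrays of the running groups, LF+CR against LF gave 241 calls and HF+CR against LF gave 67. Of the 864 genes of the high-fat comparison 166 were called on both diets, 19.2% of the high-fat and 21% of the low-fat calls. Of the 166, 50 rose and 43 fell on both diets, 45 rose on the high-fat and fell on the low-fat diet, and 28 did the reverse. Across the 14198 genes the log2 fold changes of the diets had a Pearson correlation of -0.18, a description over genes that are not independent.

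The difference between the diets was tested as an interaction, which called 815 genes (5.74%), 475 higher on the high-fat diet (3.35%) and 340 lower (2.39%), and 287 in all without the 4 arrays with pancreatic transcripts. Without LF+CR 2 it called 520. No cholesterol synthesis gene was among the 815, and 14 of the 17 also rose in LF+CR. Sqle changed by 1.92 on the high-fat diet and 2.57 on the low-fat diet. Of 20 fatty acid synthesis genes 5 were lower on the high-fat diet in the interaction and 2 were higher, Elovl3 (difference 5.44) and Mlxipl, the ChREBP gene (difference 1.12). Fasn changed by 0.59 in HF+CR against HF and by 2.55 in LF+CR against LF (difference -1.96, adjusted p = 0.000558), and Acly by 0.93 and 2.08 (difference -1.16, adjusted p = 0.00368).

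Of 19 male-biased genes 15 were higher on the high-fat diet in the interaction and 1 was lower. In HF+CR against HF 8 rose, none fell and 11 did not pass, and in LF+CR against LF 13 fell and 1 rose. The gene that went the other way was Ces2e, a carboxylesterase gene (log2 -0.07 on the high-fat diet, 0.39 on the low-fat diet). Slco1a1 changed by 4.29 in HF+CR against HF and by -3.68 in LF+CR against LF, and Cyp7b1 by 1.41 and -1.77. Of 16 female-biased genes 6 were lower in the interaction, among them Cyp2b9 (-1.31 on the high-fat diet, 3.10 on the low-fat diet). In the glutathione group 10 of 25 were lower in the interaction, with 6 higher in LF+CR than in LF. Of the lipid droplet genes 5 of 21 fell on the low-fat diet. Plin5 fell on both, by 0.90 and 0.88, whereas Cd36 and Pparg passed in the interaction (differences of -1.92 and -1.65).

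**Figure D4:**
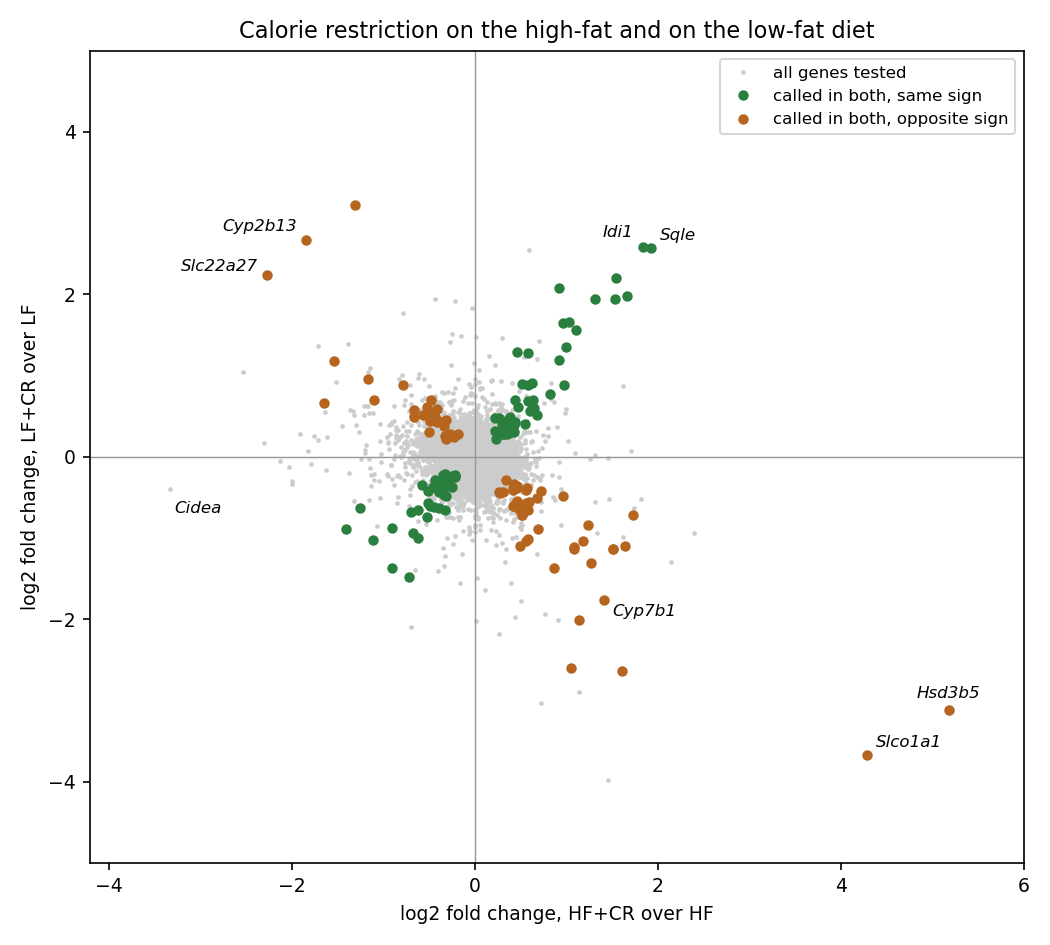
Log2 fold change of HF+CR over HF (x axis) against that of LF+CR over LF (y axis) for the 14198 genes tested, with genes called in both comparisons in green where the signs match and in orange where they differ. Idi1 and Sqle lie high on both axes, Hsd3b5 and Slco1a1 rise on the high-fat diet and fall on the low-fat diet, and Cyp2b13 and Slc22a27 do the reverse.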

How the data were processed

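Liver total RNA was isolated with Trizol, made into biotinylated cRNA and measured on Affymetrix Mouse Genome 430 2.0 arrays, per the labels' protocols and the series design. The authors deposited 1 intensity for each probe set and array, not on a log scale, with array means of 304.9 to 307.8 and values from 31.08 to 21653.94. Their summarisation tool is not stated in the labels, and the method of normalization is not given in the sources used here. Because an unknown scaling bears on the split of rises and falls, that split was also computed on centred and on quantile-normalized arrays.

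Of 45101 probe sets 64 controls were left out, 34945 carried 1 gene symbol in the platform annotation, 932 several and 9160 none. The probe set of highest mean stood for each of 18193 genes, and 14198 were kept, which on at least 3 arrays exceeded that array's 40th percentile. On log2 of the intensity plus 16, limma 3.58.1 in R 4.3.3 fitted 1 mean per group to all 18 arrays (12 residual and 3.61 prior degrees of freedom). Values are given for each of 3 arrays, which come from 3 mice per the series design, and their number limits the precision. The 51 gene lists (37 pathways and 14 cell types), the 40 single genes and the comparisons were chosen with earlier results of these data known.

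The rule for named genes takes the 15 largest rises and falls that passed without overlap, up to 6 passing genes of each list with at least 2, the 40 single genes, the 8 largest differences each way in the interaction and against LF, and 3 genes of each list with fewer passing. It gave 208 tested genes. Hmgcs1, Mvd and the 9 smaller rises of cholesterol synthesis were named after their values were seen, as the rest of a short list, and Ces2e and Mlxipl beside small counts. For 61 of the 115 that passed another probe set was bright, and in 11 of these every other one moved under 25% as far. Alternatives were other scalings, offsets, filters, variance models and left-out arrays. On simulated data with 200 changed genes 81.4% of changes of 0.5 and 97.2% of changes of 1 (log2) were recovered, with 4.79% false calls. Replicate numbers did not pair the arrays, so the model does not use them.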

Additional observations from a re-analysis of the deposited data

Results flagged for a closer look

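The effect of restriction differed between the diets for 16 genes named by the rule, 8 in each direction, by the test of the difference itself in limma (log2 fold change of HF+CR over HF minus that of LF+CR over LF). The 8 higher on the high-fat diet were Hsd3b5 (8.29), Slco1a1 (7.96), Elovl3 (5.44), Pimreg (4.25), a mitotic regulator gene, Mup10 (4.04), Cyp4a12a (3.75), a male-biased fatty acid hydroxylase gene, Ptbp1 (3.64), a splicing repressor gene, and Serpina4-ps1 (3.44), a serpin pseudogene. For each of the 8 the fold change was positive on the high-fat diet and negative on the low-fat diet, with adjusted p of the difference from 1.53e-06 (Slco1a1) to 0.0144 (Serpina4-ps1). For Cyp4a12a the high-fat change turned to -0.12 without HF 2. Hsd3b5 stood at background on all HF and LF+CR arrays, so its difference is only bounded, at 8.15 or more, and its rank is that of fitted values. Of Serpina4-ps1 2 HF and 2 LF+CR arrays lay at background. Pimreg lay there on all 3 LF+CR arrays, so its low-fat fall is only bounded (LF at least 5.38-fold above LF+CR). Slco1a1, Elovl3 and Mup10 lay there on 1 LF+CR array each. The high-fat call of Pimreg was lost without HF 1 or HF+CR 2 (adjusted p = 0.0599 at most). Hsd3b5, Slco1a1, Elovl3, Mup10 and Cyp4a12a belong to the male-biased list.

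Elovl3 changed by 1.46 on the high-fat diet (adjusted p = 0.0754) and -3.98 on the low-fat diet, so the difference passed although the high-fat change did not. Cyp4a12a read 1073, 1248 and 1938 in HF+CR livers and 1555, 247 and 1443 in HF livers, with HF 2 far below the other HF arrays and no call on the high-fat diet (adjusted p = 0.402). The Ptbp1 probe set of highest mean read 4135, 3941 and 4291 in HF+CR livers and 1606, 2379 and 2046 in HF livers, but the other bright probe sets of this gene moved under 25% as far, and its high-fat call was lost whichever of the 6 arrays was left out (adjusted p = 0.193 at most). Serpina4-ps1 read 422, 254 and 763 in HF+CR livers and 78, 100.2 and 80.9 in HF livers, and its high-fat call was kept without HF 2 or HF+CR 2 only (adjusted p = 0.104 at most).

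The 8 lower on the high-fat diet were Gstm3 (-2.56), Gsta2 (-2.72), Cidea (-2.94), Tceal8 (-3.08), a transcription elongation factor-like gene, Rad51b (-3.58), Cyp2b9 (-4.41), Slc22a27 (-4.51) and Cyp2b13 (-4.52). Cyp2b13 stood at background on all HF+CR and LF arrays, which bounds its difference at -4.46 or lower. Cidea fell on the high-fat diet by 3.33 and did not pass on the low-fat diet (log2 -0.39), where it read 66.4, 70.5 and 67.8 in LF+CR livers, at background, and 108, 107 and 72.7 in LF livers. Cidea also stood at background on all 3 HF+CR arrays and 1 LF array. With both restricted groups at background, the size of its difference is not measured and no bound could be set on it. The other 7 had a negative fold change on the high-fat diet and a positive one on the low-fat diet, as Slc22a27 with -2.27 and 2.24. For Rad51b this is the probe set of highest mean, and the other bright one did not fall on the high-fat diet (log2 0.07). Gstm3, a glutathione transferase gene, did not pass on the high-fat diet (log2 -0.79, adjusted p = 0.222), where HF 1 stood highest. Tceal8 read 229, 256 and 214 in HF+CR livers and 1204, 470.0 and 896 in HF livers and lost its high-fat call without HF 1, HF 3, HF+CR 1 or HF+CR 2 (adjusted p = 0.104 at most).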

How the results depend on the processing

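With 3 arrays a group the counts of calls moved most. For HF+CR against HF (864 genes) the count was 285 to 912 with 1 array left out, 2178 with array weights, 547 when the 3 arrays farthest out on principal component 1 were dropped, 518 when the 4 that hold pancreatic transcripts, none of them HF+CR or HF (LF 1, LF+CR 1, LF+Ex 3 and HF+Ex 1, Ex for running), were dropped, 1384 with log2 Arntl minus log2 Dbp as a covariate and 1309 without the 4 arrays of its highest values. The last 4 settings were chosen after seeing the data. In the same order of settings, LF+CR against LF (791) gave 447 to 915 and 1436, then 241 without the pancreatic arrays and 398 without those 4 arrays, and 190 from its own arrays alone. The difference between diets (815) gave 389 to 1038, 1592, 371, 287, 1395 and 364. HF+CR against LF (227) gave 101 to 195, 541, 353, 67, 96 without those 4 arrays and 126 from its own arrays alone. Centring arrays on their median turned the split of HF+CR against HF to 292 rises and 514 falls, from 502 and 362 as deposited, and the 6 arrays alone gave 299 and 394. With replicate number as a block the 4 counts were 650, 633, 610 and 178. The numbers did not pair the arrays (correlations of deviations -0.239, 0.0567 and -0.117). Of the 80 genes named in the text that passed, 63 passed with each array left out and 62 under all 21 alternatives. The fold change of Cyp4a12a turned to -0.12 without HF replicate 2, against up to 1.17 without another array, and that of Ces2e, which did not pass, to 0.023 without HF+CR replicate 1, against down to -0.13.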

Other observations

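Some smaller changes of HF+CR livers belong to groups not described above. In glycolysis and glycogen metabolism 3 of 15 genes fell and none rose, but 0 fell without HF 1 or HF+CR 1 and at most 2 without another array. Gbe1, the glycogen branching enzyme gene, read 872, 1245 and 1104 in HF+CR livers and 1705, 1421 and 1476 in HF livers (log2 -0.52, adjusted p = 0.0169), and it did not pass without HF 1 or HF+CR 1 (adjusted p = 0.0961 at most). In aldehyde and retinol metabolism 1 of 23 genes rose and 2 fell, with 0 falls without HF 1, HF 3 or HF+CR 1. Rdh11, a retinal reductase gene, read 439, 561 and 489 in HF+CR livers and 297, 174 and 244 in HF livers (log2 1.03, adjusted p = 0.00232), and it passed with each array left out. In the erythroid list 2 of 5 genes rose, and 1 or 2 without 1 array. Alas2, the gene of the first enzyme of heme synthesis in red cells, read 1173, 1111 and 1282 in HF+CR livers and 868, 778 and 879.9 in HF livers (log2 0.49, adjusted p = 0.00811). On the low-fat diet it fell with restriction (log2 -1.10), and the difference passed (adjusted p = 9.39e-06).

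Of the 4 drug transporter genes that fell, Slc47a1, a drug efflux transporter gene, fell by 0.40 and passed with each array left out. Hfe, an iron sensor gene, fell by 0.38 and did not pass without HF 1 or HF+CR 1 (adjusted p = 0.059 at most). Osbpl3, an oxysterol-binding protein gene, read 66.9, 118 and 89.5 in HF+CR livers and 699, 285 and 438 in HF livers, and it lost its call without HF 1 (adjusted p = 0.0533). Bile acid genes gave 2 falls among 21 (2.55% of all genes fell), and 0 without HF 1, HF 3 or HF+CR 1. Cyp7a1, the rate-limiting enzyme gene of bile acid synthesis, read 994, 548 and 836 in HF+CR livers and 1289, 1247 and 1291 in HF livers, without overlap and without passing (adjusted p = 0.33). Its HF arrays stood close together and its HF+CR arrays apart.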
